A study of Homo sapiens with 20 samples.

Results

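The comparison described here sets the late against the early state of EGF-treated MDA-MB-468 cells, a triple negative breast cancer cell line of epithelial origin. Its members were the 4 libraries of cells given 50 ng/mL EGF for 72 h and the 4 libraries of cells given the same dose for 12 h, chosen by their labels, 8 of the 20 libraries in the series. The other libraries came from untreated cells and from cells treated for 24 or 48 h, and the untreated control was left out. The study used this model to follow lipids and gene expression through the epithelial-mesenchymal transition (EMT), with bulk RNA-seq on 4 biological replicates of each group. In both groups the cells were seeded, cultured and then deprived of serum before EGF was added. All cells were seeded together and harvested together, so that cells with 12 h of EGF had spent more hours without EGF before it was added, and the length of the treatment and of this wait cannot be told apart. Whether the replicates came from separate cultures is not stated beyond the word biological. The cells are a single line, whose identity was, according to the study's methods, not tested after delivery.

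EGF binds its receptor EGFR, a tyrosine kinase that signals through the MAP kinase cascade and PI3 kinase. Within minutes to hours this induces immediate early transcription factors, followed by feedback inhibitors that dampen the receptor and the cascade. Growth factor signaling also drives ribosome production and cell division, and in carcinoma cells that undergo EMT, junction proteins and keratins give way to vimentin, fibronectin and other mesenchymal proteins.

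The deposited table gives an estimated count for each of 60271 genes in each library. Library totals were 20442693 to 23455737 counts at 12 h and 15611961 to 25856953 counts at 72 h. Levels are given below as CPM, the count relative to the TMM-scaled library total, in the order of replicates 1 to 4, and as mean ± SD over n = 4 libraries. Fold changes are those of 72 h over 12 h, log2 fold changes are given with their standard error (SE), and a gene was said to rise or fall when its adjusted p (Benjamini-Hochberg) in the quasi-likelihood test of edgeR on the 15228 genes tested was under 0.05. With 4 libraries on each side, the groups were said not to overlap when all 4 values of one group lay above all 4 of the other. Bulk RNA-seq cannot tell a change in RNA per cell from a change in the share of cells that make the RNA.

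The libraries fitted their label as epithelial cells. All 7 epithelial markers were expressed in all 8 libraries, with a summed level of 17700 to 18600 CPM at 12 h and 7720 to 8450 CPM at 72 h. All 7 of them fell, from EPCAM, the epithelial cell adhesion molecule, with 202 ± 7.74 CPM at 12 h and 137 ± 6.4 CPM at 72 h, to KRT18 with 4829.7 ± 155 and 1369 ± 126 CPM. Markers of other cell types stayed low in both groups but were higher at 72 h. The summed levels were 9.58 to 11.6 CPM at 12 h and 15.2 to 17.1 CPM at 72 h for 8 fibroblast markers, 1.48 to 2.24 and 3.66 to 4.43 CPM for 6 endothelial markers, and 16.9 to 17.9 and 28.6 to 33.4 CPM for 7 leukocyte markers. Most of the fibroblast and leukocyte sums came from COL1A1 and CD68. PECAM1 of endothelium rose from 0.352 ± 0.117 to 2.93 ± 0.26 CPM. The leukocyte markers CD14 and LYZ rose from 1.05 ± 0.208 to 4.14 ± 0.256 CPM and from 0.46 ± 0.0728 to 1.3 ± 0.276 CPM. PECAM1 and LYZ entered the test only through their level at 72 h, so their rise is not independent of the filter on low counts. KDR and ITGAM did not pass the threshold. Over all 8 libraries, CLDN5 of endothelium had 0 counts, CD3E of T cells, COL1A2 and LUM had 1 count each, and PTPRC, the pan-leukocyte marker, had 14 counts.

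Between 12 and 72 h of EGF, 11530 of the 15228 genes tested changed, or 75.7%. Of these, 5843 rose (38.4% of those tested) and 5687 fell (37.3%). Beyond a 1.5-fold change either way, the limit that the study used, 6370 genes changed (41.8%), with 3957 higher (26%) and 2413 lower (15.8%). In 10577 genes (69.5%) the groups did not overlap, with 34.6% of genes higher and 34.8% lower at 72 h. The large changes were mostly rises: 2558 genes rose and 725 fell by more than 2-fold, and 343 rose and 17 fell by more than 8-fold. The share of rises among the changed genes, 50.7%, depended on the scaling. It was 65.1% with library size only and 60.5% with upper quartiles, which moved all log2 fold changes by a median of 0.193 and 0.136, and 40% with the factors per gene of the authors' own normalization, where the changes above gave 42.3% among the same 12339 genes. Changes are therefore described relative to the TMM scaling, and the lists whose median changed sign are pointed out. Counts of list members are to be read beside the shares over all genes tested, 38.4% higher and 37.3% lower, or over protein-coding genes, 33.3% and 42.8%. Of protein-coding genes with a mean of 50 CPM and over, 19.6% were higher and 64.3% lower.

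The 24 genes with the largest changes, 12 in each direction, were taken among genes with a mean of at least 5 CPM whose groups did not overlap. Their levels in each library are shown in the plot of leading genes. All 12 rises started from low levels, at most 1.19 CPM in any library at 12 h (PRR9). Positions are those of GENCODE 29 on GRCh38.

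**Figure D1:**
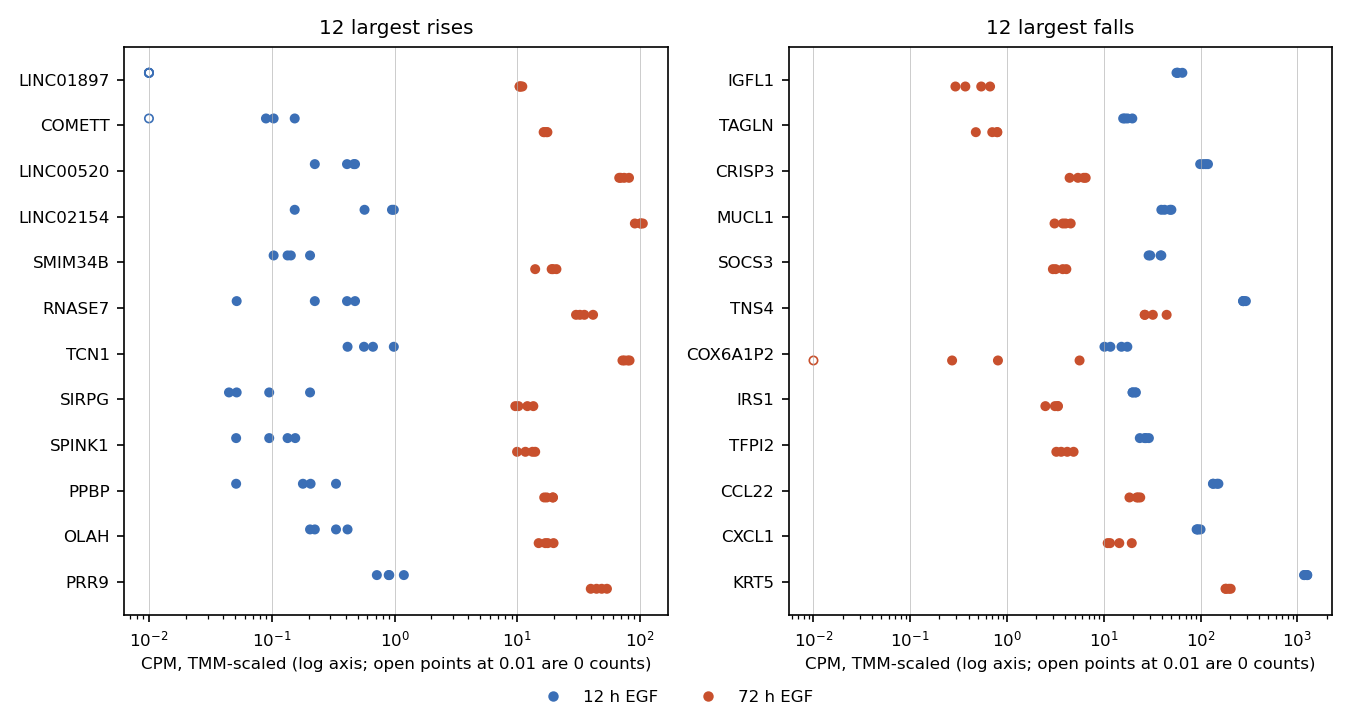
CPM (TMM-scaled, log axis) of the 12 genes that rose most and the 12 that fell most, with 1 point for each of the 4 libraries at 12 h of EGF (blue) and 72 h (orange). In each gene the 4 libraries of each time lie apart from those of the other, and open points stand for libraries with 0 counts, all 4 at 12 h for LINC01897.

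Long non-coding RNAs (lncRNAs) and secreted or antimicrobial proteins led the rises. LINC00520 (chr14:55781132-55796731), a lncRNA, had 0.477, 0.41, 0.466 and 0.224 CPM at 12 h and 81.2, 74.2, 67.6 and 69.5 CPM at 72 h, a log2 fold change of 7.53 (SE 0.12). LINC02154 (chrX:13266048-13303452) had 0.954, 0.154, 0.57 and 0.987 CPM at 12 h and 100.3, 101, 90.7 and 105 CPM at 72 h (log2 fold change 7.18, SE 0.16). All libraries at 72 h were far above all those at 12 h in both lncRNAs. LINC01897 (chr18:57961231-57964434) had 0 counts in all 4 libraries at 12 h and 10.5, 10.7, 10.4 and 11 CPM at 72 h, at least 72.4-fold higher when 3 counts are set as the floor in each library at 12 h. COMETT (chr7:116563594-116663829), a lncRNA named as antisense to the receptor gene MET, had 0, 0.154, 0.104 and 0.0897 CPM at 12 h and 17.3, 17.6, 16.6 and 16.4 CPM at 72 h. Of its exon bases, 40.7% overlap those of other genes on its strand and 0% lie opposite another gene. These transcripts passed the filter on low counts only through their level at 72 h. So did the other leading rises below, except PRR9. The same holds for later genes with counts too low at 12 h for the filter, among them MMP1, IL1B, MUC4, COL17A1, TP63, ZEB1, NR4A3, RSAD2 and IFIT1. In such genes the rise and the lack of overlap are not independent of the filter.

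TCN1 (chr11:59852800-59866575), which encodes the vitamin B12 carrier haptocorrin, rose 114-fold from 0.658 ± 0.242 to 77 ± 4.62 CPM (adjusted p = 1.7e-23 in edgeR's quasi-likelihood test). Its libraries had 0.668, 0.564, 0.414 and 0.987 CPM at 12 h and 82.1, 79.5, 74.6 and 71.9 CPM at 72 h. RNASE7 (chr14:21042226-21044234), an antimicrobial ribonuclease of the skin, had 0.477, 0.41, 0.0518 and 0.224 CPM at 12 h and 41.4, 35.2, 30.1 and 32.4 CPM at 72 h, a log2 fold change of 6.87 (SE 0.22). The libraries at 72 h lay far above those at 12 h for both genes. SPINK1 (chr5:147824568-147831786), a secreted trypsin inhibitor, had 0.0954, 0.0513, 0.155 and 0.135 CPM at 12 h and 14, 11.6, 9.96 and 13.3 CPM at 72 h. PPBP (chr4:73987038-73988197), the precursor of the chemokine CXCL7, had 0.334, 0.0513, 0.207 and 0.179 CPM at 12 h and 19.4, 19.5, 17.4 and 16.6 CPM at 72 h. PRR9 (chr1:153217584-153219317), a proline-rich protein gene of the epidermal differentiation complex, had 0.906, 0.718, 1.19 and 0.897 CPM at 12 h and 53.7, 48.7, 39.7 and 44.2 CPM at 72 h. Transcripts of SPINK1, PPBP and PRR9 were higher in all 4 libraries at 72 h than in any at 12 h, by log2 fold changes of 6.73, 6.51 and 5.65, respectively.

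The other rises of this size were in membrane and metabolic proteins. OLAH (chr10:15032227-15073852), a thioesterase that releases medium-chain fatty acids from fatty acid synthase, had 0.334, 0.205, 0.414 and 0.224 CPM at 12 h and 19.7, 17.7, 16.9 and 14.9 CPM at 72 h (log2 fold change 5.86, SE 0.17). SIRPG (chr20:1629152-1657779), a signal regulatory protein that binds CD47, had 0.0954, 0.205, 0.0518 and 0.0449 CPM at 12 h and 10.2, 9.63, 13.5 and 12.1 CPM at 72 h (log2 fold change 6.77, SE 0.25). SMIM34B (chr21:7784482-7793954), which encodes a small membrane protein, had 0.143, 0.205, 0.104 and 0.135 CPM at 12 h and 20.8, 19.1, 14 and 19.5 CPM at 72 h, but it has a near-identical copy on the same chromosome, so that its reads cannot be assigned with certainty.

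The largest falls were in growth factor and cytokine signaling, the cytoskeleton and secreted proteins. IGFL1 (chr19:46229752-46231243), an insulin growth factor-like secreted protein, had 64.8, 57.5, 56.4 and 58.1 CPM at 12 h and 0.293, 0.541, 0.371 and 0.668 CPM at 72 h, a 131-fold fall (adjusted p = 4.68e-23 in edgeR's quasi-likelihood test). TAGLN (chr11:117199321-117204782), transgelin, an actin-binding protein often used as a mesenchymal and smooth muscle marker, had 19.7, 15.8, 17.6 and 16.5 CPM at 12 h and 0.476, 0.704, 0.795 and 0.789 CPM at 72 h, a 25.8-fold fall. Both genes were near the limit of detection at 72 h in all 4 libraries. CRISP3 (chr6:49727384-49744437), a secreted cysteine-rich protein, had 113, 99, 119 and 107 CPM at 12 h and 4.43, 6.5, 6.2 and 5.4 CPM at 72 h, and MUCL1 (chr12:54830519-54858393), a small mucin of breast epithelium, had 48.3, 42.4, 49.9 and 39.3 and 3.77, 4.55, 4.03 and 3.1 CPM. Their log2 fold changes were -4.30 (SE 0.09) and -3.54 (SE 0.10).

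SOCS3 (chr17:78356778-78360077), an inhibitor of cytokine signaling, had 39.3, 30.2, 38.6 and 29 CPM at 12 h and 4.1, 2.98, 3.18 and 3.76 CPM at 72 h (log2 fold change -3.27, SE 0.13). IRS1 (chr2:226731317-226799759), the docking protein of the insulin and IGF1 receptors, had 19.8, 21.1, 21.4 and 19.8 CPM at 12 h and 2.49, 3.36, 3.13 and 3.34 CPM at 72 h (log2 fold change -2.76, SE 0.10). The chemokine CCL22 (chr16:57358772-57366190) had 153, 147, 134 and 135 CPM at 12 h and 22.7, 18.4, 23.8 and 21.9 CPM at 72 h, and the neutrophil-attracting chemokine CXCL1 (chr4:73869393-73871242) had 99.8, 92.4, 91 and 95.1 and 19.4, 14.5, 11 and 11.6 CPM. All 4 of these were lower in every library at 72 h. TNS4 (chr17:40475828-40501597), a tensin of focal adhesions, had 294, 276, 277 and 275 CPM at 12 h and 44.6, 32.1, 26.5 and 26.5 CPM at 72 h (log2 fold change -3.09, SE 0.17). TFPI2 (chr7:93885396-93890991), a matrix-bound inhibitor of plasmin and other serine proteases, had 26.5, 23.5, 29.2 and 27.2 CPM at 12 h and 4.87, 3.63, 3.23 and 4.19 CPM at 72 h (log2 fold change -2.72, SE 0.11). KRT5 (chr12:52514575-52520687), the keratin of basal epithelial cells, had 1266, 1258, 1175 and 1178 CPM at 12 h and 205, 183, 181 and 195 CPM at 72 h (log2 fold change -2.67, SE 0.05). The libraries at 72 h differed more among themselves in TNS4 than in KRT5. COX6A1P2 (chr6:37044860-37045189), a processed pseudogene, had 17.5, 11.7, 10.2 and 15.2 CPM at 12 h and 0.805, 0.271, 5.61 and 0 CPM at 72 h (adjusted p = 0.0125 in edgeR's quasi-likelihood test), where nearly all counts at 72 h came from replicate 3. Its fall did not pass with all 20 libraries in the fit (adjusted p = 0.0553 in the same test), and it may share reads with its parent gene COX6A1.

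The libraries treated for 24 and 48 h show when the levels moved. Over the 16 EGF libraries scaled together, the means of 10 of the 12 rises went up at each step from 12 to 72 h, and in all 12 the mean at 24 h was below 50% of that at 72 h. LINC00520 averaged 0.414, 3.6, 8.31 and 76 CPM at 12, 24, 48 and 72 h, and TCN1 averaged 0.692, 5.17, 14.1 and 79.99 CPM. Of the 12 falls, all had a mean at 24 h below 50% of that at 12 h, and 5 had means in order of time. IGFL1 averaged 62.2, 15.1, 0.963 and 0.486 CPM and continued down, whereas TNS4 averaged 294, 57.9, 14.9 and 33.6 CPM, with a lower mean at 48 h than at 72 h. CXCL1, TFPI2, IRS1, KRT5 and TAGLN likewise had their lowest mean at 48 h. These values are a description, since the genes were chosen by their difference between the ends of the series.

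**Figure D2:**
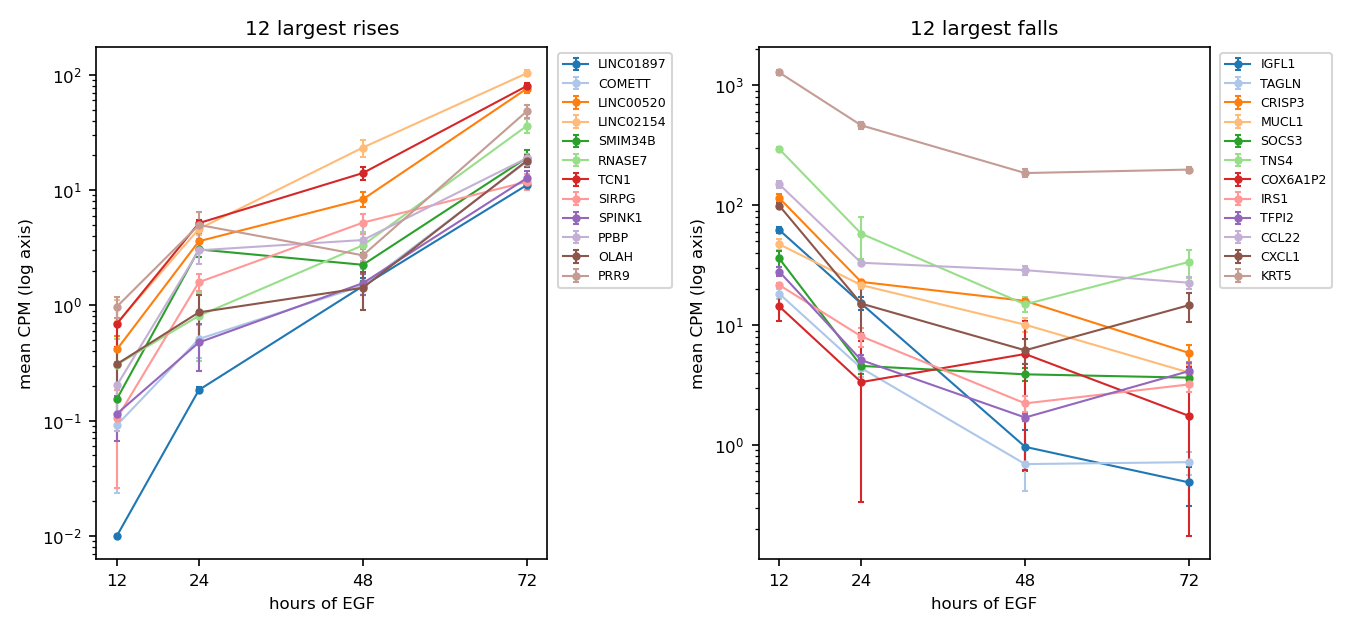
Mean CPM (log axis) of the 24 leading genes at the 4 EGF times (12, 24, 48, 72 h), with bars of 1 SD over 4 libraries, scaled over the 16 EGF libraries. The 12 rises stay at low levels at 24 h and reach their highest mean at 72 h, whereas all 12 falls are below 50% of their 12 h mean at 24 h. The mean of 0 for LINC01897 at 12 h is drawn at 0.01, and lower bars are cut at 10% of the mean.

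EGFR was lower at 72 h, and the ligands of its family went both ways. EGFR, the receptor of the added ligand, had 10760.0, 11413, 10863 and 11162 CPM at 12 h and 5712, 5435, 5809.9 and 5340.5 CPM at 72 h, a log2 fold change of -0.99 (SE 0.04). Of 10 measured receptors and ligands of the ERBB family (13 in the list), 5 rose and 3 fell, with a median log2 fold change of 0.217 beside 0.0183 over all genes tested. EPGN, the ligand epigen, rose 15.3-fold from 1.76 ± 0.376 to 27 ± 2.42 CPM, with 1.91, 1.44, 2.23 and 1.48 CPM in the libraries at 12 h and 27.2, 30.3, 25.7 and 24.7 CPM at 72 h. EGF itself, as a transcript of the cells, had 0.858, 1.23, 0.777 and 0.807 CPM at 12 h and 4.8, 5.52, 5.09 and 6.01 CPM at 72 h, and EREG, epiregulin, had 1.67, 2.56, 2.33 and 2.24 and 10.8, 9.9, 8.53 and 7.41 CPM. All 3 ligand transcripts were higher in every library at 72 h. TGFA, the ligand TGF-alpha, fell from 126 ± 4.56 to 71.6 ± 5.86 CPM, and HBEGF fell from 24.3 ± 1.79 to 17.8 ± 3.01 CPM. ERBB4 and NRG1 had 0 counts in all 8 libraries.

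Of 20 measured phosphatases and adaptors that dampen receptor and MAP kinase signaling, 12 fell and 4 rose, with a median log2 fold change of -0.307. Of protein-coding genes, 64.3% fell and 19.6% rose at 50 CPM and over, and 47% and 31% from 10 to 50 CPM. ERRFI1, which binds and inhibits EGFR, had 1132, 1139, 1139.5 and 1184 CPM at 12 h and 428, 391, 332 and 336 CPM at 72 h (log2 fold change -1.63, SE 0.07). The Sprouty proteins SPRY4 and SPRY2, inhibitors of the Ras-MAP kinase cascade, fell from 69.1 ± 4.06 to 36.9 ± 5.03 CPM and from 119 ± 4.45 to 68.4 ± 7.3 CPM. DUSP6 and DUSP4, phosphatases of ERK, fell by log2 fold changes of -0.61 and -0.57, but 40.5% of the exon bases of DUSP6 lie opposite another gene. Some inhibitors of this pathway rose. DUSP10, a phosphatase that acts on JNK and p38, had 12.3, 11.1, 12.7 and 11.7 CPM at 12 h and 40.4, 40.3, 37.3 and 42.6 CPM at 72 h, a rise of 3.37-fold, and DUSP16, another phosphatase of JNK, rose from 19.1 ± 1.92 to 31.3 ± 2.34 CPM.

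Of 22 measured immediate early genes, 15 fell and 4 rose, with a median log2 fold change of -0.61. EGR3, a zinc finger factor induced by growth factors, had 7.1, 5.9, 6.79 and 5.07 CPM at 12 h and 1.54, 0.541, 0.583 and 0.85 CPM at 72 h. MYC, the growth-promoting transcription factor, had 422, 413, 443 and 435 CPM at 12 h and 178, 181, 156 and 160.1 CPM at 72 h, a 2.53-fold fall (adjusted p = 4.36e-17 in edgeR's quasi-likelihood test). The groups were far apart in both genes. ATF3, a stress-induced factor of the ATF family, rose from 16.6 ± 0.832 to 48.1 ± 1.62 CPM, and NR4A3, an orphan nuclear receptor, had 0.477, 0.359, 0.155 and 0.269 CPM at 12 h and 1.46, 1.19, 1.17 and 1.4 CPM at 72 h.

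Genes of ribosome production were lower at 72 h. All 50 measured genes of ribosome biogenesis, which assemble ribosomes in the nucleolus and make ribosomal RNA, fell, with a median log2 fold change of -0.898 and groups that did not overlap in any of the 50. BOP1, a factor in the maturation of the large subunit, had 9.63, 7.85, 7.87 and 9.02 CPM at 12 h and 2.16, 2.71, 2.07 and 2.19 CPM at 72 h, a log2 fold change of -1.92 (SE 0.13). TCOF1, treacle, which supports ribosomal RNA transcription, had 53.7, 52.4, 48.4 and 49.5 CPM at 12 h and 17.5, 14.6, 14.4 and 16.3 CPM at 72 h (log2 fold change -1.69, SE 0.07). All 78 ribosomal protein genes fell too, but by less, with log2 fold changes from -0.768 to -0.113 and a median of -0.411. Their summed share of counts was 6.72 to 6.9% at 12 h and 5.81 to 6.21% at 72 h. RPL23 and RPS14 of the large and the small subunit led, with 176 ± 6.13 CPM at 12 h and 103 ± 5.04 CPM at 72 h for RPL23 and 308 ± 13.9 and 189 ± 5.27 CPM for RPS14. Ribosomal protein genes have many processed pseudogenes, with which reads may be shared.

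The E-box CACGTG, the sequence bound by MYC and other basic helix-loop-helix factors, was found in the promoters of 16 of the 43 ribosome biogenesis genes with a promoter in the RefSeq table (GRCh38.p14), or 37.2%, and in 7.43% of all 27305 promoters, counted on both strands from 250 bases before to 50 after the start. Among protein-coding genes beyond the fold limit, it was found in 12.1% of those lower and 7.58% of those higher at 72 h. The ribosomal protein genes, which all fell, held it in 3 of 62 promoters (4.84%). The lysosomal genes, which more often rose than fell, held it in 8 of 25 (32%). Only 25 of the 37 genes in the lysosomal list had a promoter in the table. Promoters of 2 of the ribosome biogenesis genes are shown 5′ to 3′ with the E-box in capitals. They were chosen after their values were seen, since the promoters of the 2 leading members hold no such match. RRP9 (chr3:51941855-51942154, minus strand), a component of the U3 particle that processes ribosomal RNA, fell from 5.12 ± 0.675 to 1.73 ± 0.282 CPM, and UTP20 (chr12:101279855-101280154, plus strand), another processing factor, fell from 55 ± 3.24 to 19.8 ± 1.44 CPM. The match lies at -5 from the start in RRP9 and at -10 in UTP20.
RRP9: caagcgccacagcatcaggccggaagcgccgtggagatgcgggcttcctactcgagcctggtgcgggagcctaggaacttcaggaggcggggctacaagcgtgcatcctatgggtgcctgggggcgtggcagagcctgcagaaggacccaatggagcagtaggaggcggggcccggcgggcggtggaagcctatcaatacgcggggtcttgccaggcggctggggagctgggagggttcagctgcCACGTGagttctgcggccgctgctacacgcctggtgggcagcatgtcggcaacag
UTP20: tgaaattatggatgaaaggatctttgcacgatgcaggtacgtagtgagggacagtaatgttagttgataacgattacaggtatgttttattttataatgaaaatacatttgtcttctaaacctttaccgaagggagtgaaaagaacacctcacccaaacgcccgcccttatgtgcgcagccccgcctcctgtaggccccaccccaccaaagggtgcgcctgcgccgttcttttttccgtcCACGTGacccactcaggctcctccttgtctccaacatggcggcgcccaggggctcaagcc

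Most genes of protein folding and turnover were lower at 72 h. Of 25 heat shock proteins and chaperonins of the cytosol and mitochondria, 24 fell and 0 rose in edgeR's quasi-likelihood test, with 0 higher at an unadjusted p under 0.05 and 0 higher in DESeq2, and the median log2 fold change was -0.744. HSPA8, the constitutive HSP70 chaperone, had 3897, 3992, 3899 and 3934 CPM at 12 h and 1627, 1617, 1429 and 1469 CPM at 72 h, and CCT2, a subunit of the chaperonin that folds actin and tubulin, had 117, 109, 120.1 and 116 and 46.1, 48.9, 45.1 and 43.1 CPM. Both were lower by more than 2-fold in every library at 72 h than in any at 12 h. Of 33 proteasome subunits, 27 fell, with a median of -0.358, beside 64.3% of protein-coding genes of 50 CPM and over. PSMD11 of the regulatory particle fell from 136 ± 2.15 to 81.8 ± 0.55 CPM. Of 25 chaperones and sensors of the endoplasmic reticulum, 14 fell and 6 rose, beside 64.3% and 19.6% of protein-coding genes of 50 CPM and over. PDIA6, a disulfide isomerase, fell from 413 ± 15.9 to 233 ± 9.5 CPM, whereas ATF6, a sensor of unfolded proteins, rose from 105 ± 5.68 to 209 ± 8.7 CPM and HERPUD1, which serves the degradation of misfolded proteins, from 124 ± 7.53 to 222 ± 5.63 CPM. Of the exon bases of PDIA6, 25.2% lie opposite another gene.

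**Figure D3:**
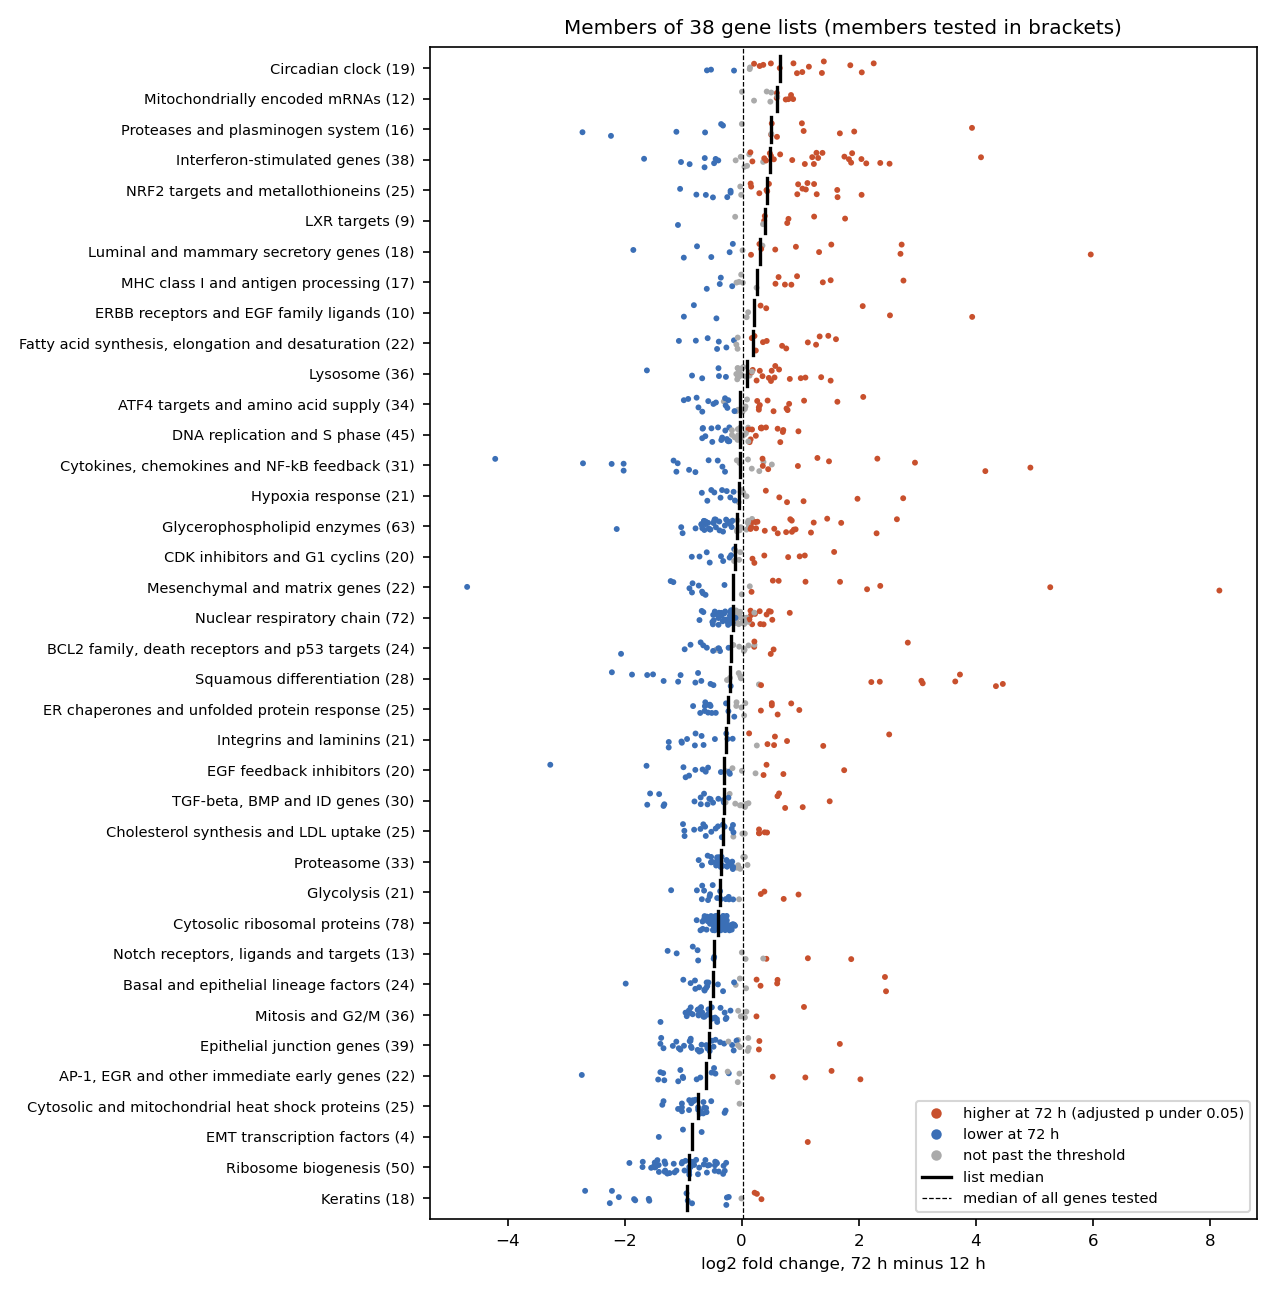
Log2 fold change of 72 h minus 12 h of EGF for each measured member (point) of 38 gene lists, sorted by the list median (bar), with the number of members tested in brackets. Points are orange or blue where adjusted p was under 0.05, and the dashed line is the median over all 15228 genes tested, 0.0183. The point furthest to the right, SPOCK1, had 0 counts at 12 h, and its place depends on the prior count. Keratins, ribosome biogenesis and EMT transcription factors lie lowest, and the circadian clock and mitochondrially encoded mRNAs highest.

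Most genes of mitosis were lower at 72 h. Of 36 genes of the spindle, the kinetochore and the mitotic kinases, 29 fell and 2 rose, with a median log2 fold change of -0.538. UBE2C, the ubiquitin-conjugating enzyme of the anaphase-promoting complex, had 209, 207, 211 and 206 CPM at 12 h and 72.8, 74.9, 87.6 and 84.3 CPM at 72 h (log2 fold change -1.39, SE 0.05). CDC20, an activator of the same complex, had 106, 107, 99.9 and 105 CPM at 12 h and 47.6, 52.3, 58.3 and 57.5 CPM at 72 h. MKI67, the proliferation marker Ki-67, had 224, 251, 227 and 249 CPM at 12 h and 125, 126, 139.6 and 130.2 CPM at 72 h, a 1.83-fold fall. All 3 had groups that did not overlap. HMMR, a spindle protein and hyaluronan receptor, went the other way, with 14, 14.6, 15.9 and 14.4 CPM at 12 h and 29, 30.4, 32.4 and 31.3 CPM at 72 h. Of 45 genes of DNA replication and S phase, 15 rose and 15 fell, shares that do not exceed those over all genes tested (38.4% higher and 37.3% lower). MCM7 of the replicative helicase fell from 62.3 ± 2.45 to 39 ± 2.01 CPM and PRIM1, a primase subunit, rose from 19.1 ± 0.884 to 37.5 ± 2.62 CPM. The median of the S phase genes, -0.0259, was positive with library size only (0.169) and with upper quartiles (0.11).

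TTTGAA, the core of the cell cycle homology region (CHR) that is typical of mitotic genes, was found in 20 of 30 promoters of this list (66.7%) and in 15.4% of all promoters. It stands in CDC20, which fell, as well as in HMMR, which rose. CDC20 (chr1:43358731-43359030, plus strand) has 2 matches, the first at -178, and HMMR (chr5:163460382-163460681, plus strand) has 2, the first at -28, in capitals.
CDC20: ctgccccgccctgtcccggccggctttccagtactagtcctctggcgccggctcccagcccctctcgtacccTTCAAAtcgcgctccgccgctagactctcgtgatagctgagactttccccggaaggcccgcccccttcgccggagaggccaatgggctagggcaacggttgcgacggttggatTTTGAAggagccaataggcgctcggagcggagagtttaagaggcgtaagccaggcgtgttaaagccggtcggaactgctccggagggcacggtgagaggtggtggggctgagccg
HMMR: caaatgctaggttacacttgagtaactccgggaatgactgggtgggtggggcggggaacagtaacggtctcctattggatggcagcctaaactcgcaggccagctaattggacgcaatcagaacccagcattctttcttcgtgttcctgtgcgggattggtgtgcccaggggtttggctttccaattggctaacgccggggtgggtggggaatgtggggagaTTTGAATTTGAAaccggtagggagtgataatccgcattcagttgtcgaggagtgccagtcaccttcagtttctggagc

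Of 20 brakes and drivers of the entry into the cell cycle, 9 were lower and 7 higher, near the shares over protein-coding genes (42.8% and 33.3%). CCND1, cyclin D1, an EGF-inducible driver of G1, had 241, 255, 234 and 250.2 CPM at 12 h and 147, 135, 133 and 127 CPM at 72 h (log2 fold change -0.85, SE 0.05), and CDK2, the kinase of the G1/S transition, fell from 81.5 ± 3.28 to 49.5 ± 1.66 CPM. Of the inhibitors of the cyclin D kinases, CDKN2C had 2.91, 2.97, 3.94 and 3.63 CPM at 12 h and 9.26, 9.85, 9.96 and 11.4 CPM at 72 h, and CDKN2B had 14.2, 13.3, 15 and 17.3 and 28.9, 34.7, 31.3 and 32 CPM. Both inhibitors were higher in every library at 72 h, but the rise of CDKN2B was lost with factors per gene (adjusted p = 0.132 in edgeR's quasi-likelihood test). The list median, -0.115, was positive with library size only (0.0766) and with upper quartiles (0.021).

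Epithelial structure genes were lower at 72 h than at 12 h. Of 18 measured keratins, 14 fell and 3 rose, with a median log2 fold change of -0.932. Besides KRT5, the keratins KRT6A and KRT17 of activated and basal epithelium fell, with 1081, 1090.5, 1016 and 1016 CPM at 12 h and 256, 214, 208 and 203 CPM at 72 h for KRT6A and 1302, 1168, 1136 and 1105 and 306, 235, 300.3 and 258 CPM for KRT17. KRT18, the main keratin of simple epithelium, had 5042, 4816, 4670.4 and 4790.4 CPM at 12 h and 1543, 1375, 1258 and 1301 CPM at 72 h, and its partner KRT8 had 719, 689, 662 and 672 and 267, 211, 206 and 228 CPM. The groups were far apart in all 4. KRT16 and KRT10 rose, but only from 55.9 ± 2.84 to 66.7 ± 7.31 CPM and from 52 ± 2.51 to 60.7 ± 3.88 CPM. Both calls were lost with factors per gene (adjusted p = 0.376 and 0.0824 in edgeR's quasi-likelihood test). KRT14, the partner of KRT5, fell from 31.8 ± 1.28 to 27.1 ± 2.49 CPM, with groups that overlapped and a call that was lost with library size only and with upper quartiles (adjusted p = 0.723 and 0.253 in the same test). KRT6A and KRT6B have nearly the same sequence, and their split is uncertain.

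**Figure D4:**
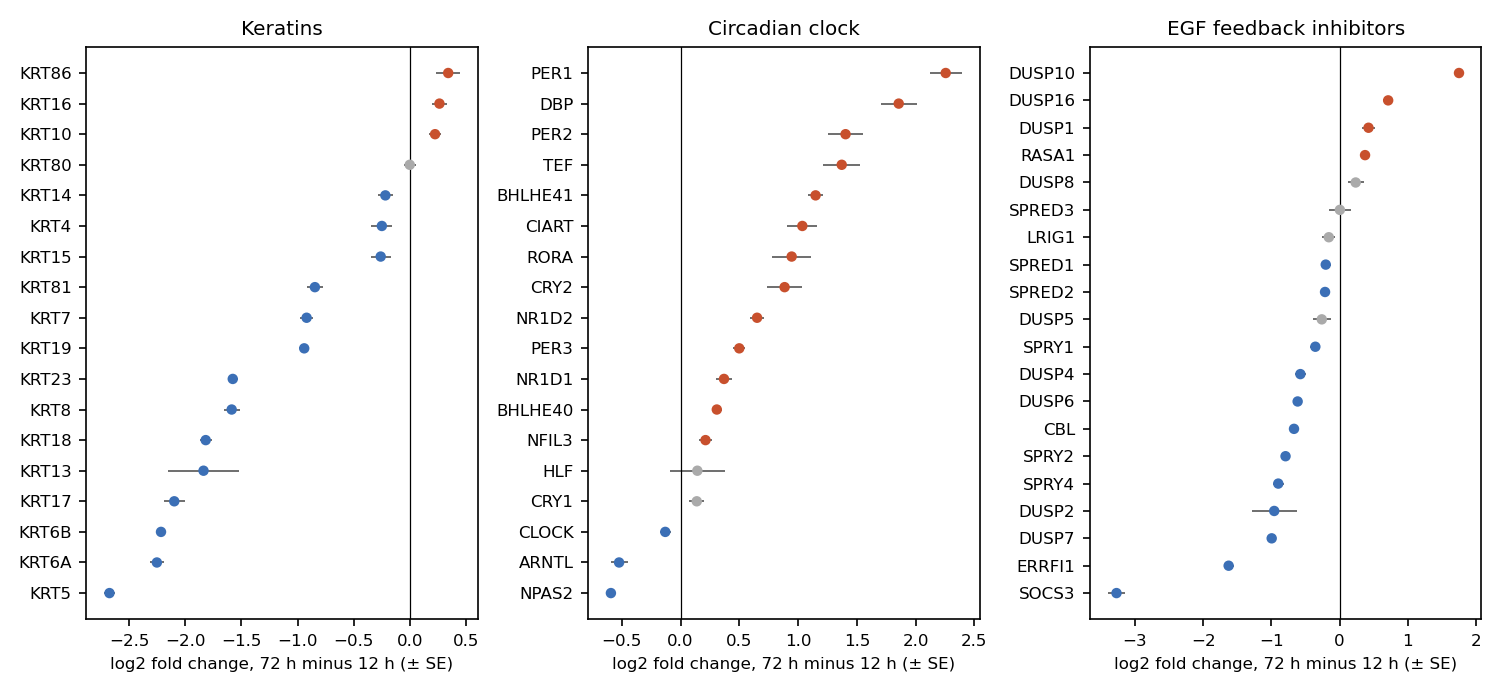
Log2 fold change of 72 h minus 12 h of EGF with bars of 1 SE for each measured keratin, circadian clock gene (1 of the 19 is not drawn) and EGF feedback inhibitor. Orange points rose, blue points fell and grey points did not pass the threshold: 14 of 18 keratins fell, 14 of 19 clock genes rose and 12 of 20 feedback inhibitors fell. Over all protein-coding genes tested, 42.8% fell and 33.3% rose.

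Of 39 genes of adherens junctions, desmosomes and tight junctions, 29 fell and 3 rose, with a median log2 fold change of -0.558. CDH1, E-cadherin, had 168, 174, 165 and 174 CPM at 12 h and 86.6, 79, 91.1 and 87.7 CPM at 72 h, a 1.98-fold fall (adjusted p = 7.25e-15 in edgeR's quasi-likelihood test). CDH3, P-cadherin, had 99.3, 92, 96.1 and 97.3 CPM at 12 h and 37.3, 35.4, 38 and 36.1 CPM at 72 h, and PKP2, a desmosomal plaque protein, had 191, 193, 198 and 196 and 76.5, 81, 69.1 and 73.2 CPM. Both cadherins and the plaque protein were lower in every library at 72 h. PKP1, the plakophilin of stratified epithelium, had the largest of the 3 rises, from 2.14 ± 0.427 to 6.84 ± 0.533 CPM.

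The factors that repress epithelial genes were low or fell. Of 11 such EMT transcription factors, 4 passed the filter on low counts, of which 3 fell. SNAI1 had 5.96, 5.33, 6.11 and 5.43 CPM at 12 h and 3.41, 2.98, 3.81 and 4.07 CPM at 72 h (log2 fold change -0.68, SE 0.13). HMGA2, a chromatin protein that induces SNAI1, had 34.4, 32.7, 32.6 and 32.9 CPM at 12 h and 14.1, 13.1, 10.2 and 12 CPM at 72 h, and TWIST2 fell from 4.22 ± 1.17 to 2.09 ± 0.454 CPM. ZEB1, a repressor of E-cadherin, had 0.334, 0.256, 0.207 and 0.269 CPM at 12 h and 0.549, 0.704, 0.583 and 0.546 CPM at 72 h and so rose from a low level. SNAI2 had 0 counts in all 8 libraries, TWIST1 had 3 to 8 counts at 12 h and 2 to 6 counts at 72 h, and neither was tested.

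Of 22 measured mesenchymal and matrix genes (33 in the list), 9 were higher and 11 lower, not far from the shares over protein-coding genes (33.3% and 42.8%). FN1, fibronectin, a matrix protein of mesenchymal cells, had 53.9, 56.7, 52.4 and 57.1 CPM at 12 h and 271, 237, 239 and 225 CPM at 72 h, a rise of 4.42-fold (adjusted p = 7.3e-20 in edgeR's quasi-likelihood test). COL17A1, a hemidesmosomal collagen of basal epithelium, had 0.143, 0.256, 0.155 and 0.224 CPM at 12 h and 7.47, 8.34, 6.41 and 8.92 CPM at 72 h. SPOCK1, a matrix proteoglycan, had 0 counts in all libraries at 12 h and 1.65, 1.41, 1.91 and 2.06 CPM at 72 h, at least 11.8-fold higher against the floor of 3 counts per library. These 3 were higher in every library at 72 h. VIM, vimentin, the intermediate filament of mesenchymal cells, had 181, 211, 182 and 195 CPM at 12 h and 156, 157, 157 and 157 CPM at 72 h and fell by 1.23-fold, which was lost with library size only (adjusted p = 0.107 in edgeR's quasi-likelihood test). Of the exon bases of VIM, 24.4% lie opposite another gene. EZR, ezrin, which links actin to the membrane, had 259, 261, 248 and 260.5 CPM at 12 h and 161, 158, 152 and 148 CPM at 72 h, and THBS1, thrombospondin, had 129.6, 135, 125 and 136 and 69.8, 58.7, 44 and 52.6 CPM. CDH2, N-cadherin, had 2 to 4 counts at 12 h and 2 to 6 counts at 72 h and was not tested. The list median, -0.146, was positive with library size only (0.0477).

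Among 21 integrins and laminins, receptors and parts of the basement membrane, 13 fell and 7 rose. Of protein-coding genes of 50 CPM and over, 64.3% were lower and 19.6% higher. LAMA3, a laminin chain, had 6.25, 8.36, 6.58 and 6.95 CPM at 12 h and 44.8, 41.7, 36.9 and 37.4 CPM at 72 h, a log2 fold change of 2.52. Of 16 measured proteases and inhibitors of the matrix and the plasminogen system (26 in the list), 8 rose and 6 fell. Over all genes tested, 38.4% rose and 37.3% fell. MMP1, an interstitial collagenase, had 0.191, 0.154, 0.0518 and 0.135 CPM at 12 h and 2.67, 2.44, 1.7 and 1.64 CPM at 72 h, and TIMP3, an inhibitor of such enzymes, had 2.00, 2.92, 2.02 and 2.6 and 8.82, 9.04, 8.42 and 10.1 CPM. Both were higher in every library at 72 h. F3, tissue factor, which starts coagulation, had 869, 804, 900.1 and 864 CPM at 12 h and 226, 206, 143 and 154 CPM at 72 h, a 4.7-fold fall.

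Of 28 measured precursors and cross-linkers of the cornified envelope and clade B serpins of squamous differentiation (36 in the list), 13 fell and 9 rose, near the shares over protein-coding genes (42.8% lower and 33.3% higher). SPRR3, a small proline-rich precursor of the envelope, had 12.7, 12.6, 10.3 and 10.2 CPM at 12 h and 272, 246, 229.6 and 261 CPM at 72 h, a log2 fold change of 4.46 (SE 0.07). SPRR2D, of the same gene cluster, had 1.86, 1.59, 1.76 and 1.61 CPM at 12 h and 38.4, 33.9, 33.1 and 33.2 CPM at 72 h, although reads may be shared among the SPRR2 genes. Both were above all 12 h libraries in every library at 72 h. Among the serpins that fell were SERPINB2, the inhibitor of plasminogen activators PAI-2, with 169, 165, 167 and 174 CPM at 12 h and 44.4, 39.4, 29.1 and 30.8 CPM at 72 h, and SERPINB1 with 1248, 1242, 1309 and 1258 and 379, 362, 318 and 321 CPM. The list median, -0.193, came to 0.000425 with library size only.

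TGANTCA, bound by AP-1, was found in 13 of 29 promoters of the squamous genes (44.8%) and in 7.76% of all promoters. A gene that rose and a gene that fell are shown, each with 1 match in capitals, at -170 in SPRR3 (chr1:153001499-153001798, plus strand) and at -102 in SERPINB2 (chr18:63887455-63887754, plus strand).
SPRR3: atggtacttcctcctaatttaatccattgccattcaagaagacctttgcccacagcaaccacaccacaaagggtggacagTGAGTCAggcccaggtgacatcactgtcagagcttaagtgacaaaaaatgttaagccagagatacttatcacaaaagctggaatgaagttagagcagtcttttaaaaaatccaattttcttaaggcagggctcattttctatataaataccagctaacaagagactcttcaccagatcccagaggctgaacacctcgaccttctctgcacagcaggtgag
SERPINB2: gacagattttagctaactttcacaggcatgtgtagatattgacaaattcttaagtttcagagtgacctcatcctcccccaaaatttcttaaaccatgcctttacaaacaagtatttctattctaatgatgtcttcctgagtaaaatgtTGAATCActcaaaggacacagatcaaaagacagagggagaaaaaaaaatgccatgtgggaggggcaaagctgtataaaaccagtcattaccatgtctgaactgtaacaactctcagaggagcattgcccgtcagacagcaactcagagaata

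Of 31 measured cytokines, chemokines and inhibitors of NF-kB (36 in the list), 14 fell and 10 rose, near the shares over protein-coding genes (42.8% lower and 33.3% higher). CCL2, a chemokine for monocytes, had 2.29, 2.1, 2.8 and 2.24 CPM at 12 h and 0.256, 0.162, 0 and 0 CPM at 72 h, a fall of 18.5-fold. IL1B, the cytokine interleukin-1 beta, had 0.0477, 0.103, 0.104 and 0.0897 CPM at 12 h and 1.72, 1.89, 1.38 and 1.52 CPM at 72 h. IL1A, interleukin-1 alpha, had 2 counts in all at 12 h and 0.842, 1.19, 1.006 and 0.668 CPM at 72 h, a ratio of scaled counts of 37.9 (95% exact interval 10.1 to 319, counting error only). The list median, -0.0359, was positive with library size only (0.157) and with upper quartiles (0.1).

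Interferon-stimulated genes, antiviral effectors and their regulators, were mostly higher at 72 h. Of 38 measured, 24 rose and 8 fell, with a median log2 fold change of 0.491. RSAD2, viperin, had 0.763, 0.41, 0.622 and 0.763 CPM at 12 h and 9.52, 12.5, 10.01 and 12.5 CPM at 72 h, a rise of 17-fold. IFIT1, which binds viral RNA, had 0.715, 0.41, 0.466 and 0.807 CPM at 12 h and 3.92, 3.46, 2.81 and 3.88 CPM at 72 h. Both rose from low levels and had groups that did not overlap. They passed the filter on low counts only through their level at 72 h, so these results are not independent of it. IFITM3, which blocks virus entry, had 445, 403, 385 and 366 CPM at 12 h and 220.4, 165, 199 and 195 CPM at 72 h, and IFITM2, its near-identical neighbour, fell from 3.12 ± 0.855 to 0.966 ± 0.301 CPM, with reads that may be shared between them.

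The core of the interferon-stimulated response element, read here as GAAA, any 2 bases and GAAA, was found in 3.65% of all promoters, counted on both strands. No share is given for the list, since 31 of its 41 members had a promoter in the table. IFIT1 (chr10:89392373-89392672, plus strand), which rose, and IFITM3 (chr11:320811-321110, minus strand), which fell, both hold 2 matches, in capitals, the first at -116 in IFIT1 and at -52 in IFITM3.
IFIT1: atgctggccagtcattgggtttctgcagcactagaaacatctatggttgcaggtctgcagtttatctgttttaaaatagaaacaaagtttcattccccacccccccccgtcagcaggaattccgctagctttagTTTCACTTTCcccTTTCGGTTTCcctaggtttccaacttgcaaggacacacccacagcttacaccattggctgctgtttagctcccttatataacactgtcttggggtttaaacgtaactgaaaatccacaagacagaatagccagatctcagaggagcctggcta
IFITM3: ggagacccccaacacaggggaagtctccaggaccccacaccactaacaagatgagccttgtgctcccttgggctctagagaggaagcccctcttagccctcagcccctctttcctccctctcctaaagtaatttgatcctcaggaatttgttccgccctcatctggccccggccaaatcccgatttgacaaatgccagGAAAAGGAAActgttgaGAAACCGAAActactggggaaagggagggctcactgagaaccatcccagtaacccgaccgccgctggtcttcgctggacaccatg

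Of 17 genes of peptide presentation on MHC class I, 8 rose and 4 fell, with a median log2 fold change of 0.255. Over protein-coding genes 33.3% were higher and 42.8% lower. HLA-B, a class I heavy chain, had 128, 124, 122 and 128 CPM at 12 h and 243, 229.8, 245 and 249.7 CPM at 72 h, and B2M, the light chain, had 394, 388, 443 and 416 and 711, 785, 731 and 729 CPM. CD74, the invariant chain of class II, had 0.668, 0.6667, 0.673 and 0.673 CPM at 12 h and 4.58, 4.87, 4.87 and 4.01 CPM at 72 h. All 3 were higher in every library at 72 h than in any at 12 h. TAP1 and TAP2, the peptide transporter, fell from 45 ± 1.6 to 35.1 ± 1.44 CPM and from 135 ± 4.24 to 89.5 ± 1.94 CPM, whereas PSMB9 of the immunoproteasome rose from 3.48 ± 0.66 to 10 ± 0.455 CPM. Of the exon bases of TAP2, 32.3% overlap those of other genes on its strand. HLA genes share sequence, and their counts may be split between them.

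The study followed lipid metabolism. Of 25 genes of cholesterol synthesis and uptake, 17 fell and 5 rose, with a median log2 fold change of -0.321. These counts are near the shares over protein-coding genes of 50 CPM and over (64.3% lower and 19.6% higher). CYP51A1, lanosterol demethylase, had 428, 432, 465 and 459 CPM at 12 h and 217, 240.3, 221 and 227 CPM at 72 h, with 79.4% of its exon bases shared with other genes on its strand. It was lower in every library at 72 h. Of 9 measured genes of the liver X receptor (LXR) pathway, which serves cholesterol export and lipogenesis, 6 rose and 1 fell, counting the receptor genes along with the targets. ABCA1, the cholesterol exporter, had 0.954, 1.54, 1.4 and 0.942 CPM at 12 h and 4.17, 4.87, 3.55 and 3.76 CPM at 72 h, and the receptor gene NR1H3 (LXR alpha) had 4.29, 3.79, 5.39 and 4.67 and 10.8, 11.2, 9.38 and 11.5 CPM.

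Of 22 measured genes of fatty acid synthesis, elongation and desaturation, 12 rose and 7 fell, with a median log2 fold change of 0.196. FADS2 and FADS1, the delta-6 and delta-5 desaturases of polyunsaturated fatty acids, rose, FADS2 with 9.39, 8.36, 8.75 and 8.79 CPM at 12 h and 27.8, 26.4, 26.5 and 27.3 CPM at 72 h and FADS1 with 3.77, 3.69, 4.25 and 4.53 and 9.26, 9.8, 10.9 and 9.41 CPM. SCD, the delta-9 desaturase that makes monounsaturated fatty acids, had 1445, 1491, 1444 and 1503 CPM at 12 h and 2477, 2423, 2762 and 2578 CPM at 72 h, a rise of 1.74-fold. All 3 desaturases were thus higher in every library at 72 h. FADS3, of the same family, fell from 23.2 ± 1.58 to 11.1 ± 1.13 CPM, and FASN, fatty acid synthase, had 351, 336, 288 and 323 CPM at 12 h and 204, 163, 201 and 187 CPM at 72 h. ELOVL3, an elongase, rose from 0.358 ± 0.145 to 1.02 ± 0.208 CPM.

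Of 63 measured glycerophospholipid enzymes (75 in the list), 31 fell and 21 rose, not far from the shares over protein-coding genes (42.8% lower and 33.3% higher). Phospholipases A2 stood at both ends, with PLA2G2F at 0.238, 0.103, 0.104 and 0.135 CPM at 12 h and 0.879, 0.866, 1.27 and 0.789 CPM at 72 h and PLA2G4E at 1.05, 1.59, 1.66 and 1.57 and 0.439, 0.325, 0.371 and 0.121 CPM, all at low levels. AGPAT2, which makes phosphatidic acid, fell from 20.2 ± 2.04 to 9.87 ± 0.678 CPM. The list median, -0.0813, was positive with library size only (0.112) and with upper quartiles (0.0548).

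Mitochondrially encoded genes took a larger share of the counts at 72 h. The share was 11.3, 8.32, 10.4 and 7.69% at 12 h and 15.9, 15.6, 12.3 and 16.4% at 72 h, means of 9.41% ± 1.68 and 15% ± 1.88 (SD, n = 4). The difference of 5.63 percentage points had p = 0.0286 in a two-sided exact permutation test over the 70 regroupings, the smallest p that 4 against 4 can give, and all 4 libraries at 72 h were above all those at 12 h. Per gene, 6 of 12 measured mRNAs rose and 0 fell in edgeR's quasi-likelihood test (0 lower at an unadjusted p under 0.05 and 0 in DESeq2), with a median log2 fold change of 0.6. MT-ND1 of complex I rose from 2243 ± 596 to 4127 ± 728 CPM. The number of these mRNAs that rose depended on single libraries and settings: it was 2 without replicate 2 at 12 h, 3 without replicate 1, 2 or 4 at 72 h, 3 with no filter beyond 1 count, 10 in the DESeq2 Wald test and with library size only, and 1 with a replicate block, where MT-ND1 lost its call (adjusted p = 0.0528 in edgeR's quasi-likelihood test). Of 72 nuclear-encoded subunits of the respiratory chain, 39 were lower and 13 higher, whereas of all protein-coding genes with a mean of 50 CPM and over 64.3% were lower and 19.6% higher. ATP5F1D of the ATP synthase fell from 27.6 ± 3.84 to 16.6 ± 2.55 CPM and NDUFB5 of complex I rose from 25.6 ± 2.55 to 45.3 ± 2.14 CPM, which was lost with factors per gene (adjusted p = 0.188 in edgeR's quasi-likelihood test). The median of the nuclear-encoded subunits, -0.155, was positive with library size only (0.0388).

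In glucose metabolism, 16 of 21 measured genes of uptake and glycolysis fell and 4 rose. Of protein-coding genes of 50 CPM and over, 64.3% fell and 19.6% rose. PFKFB3, an activator of glycolysis, had 34.8, 31.8, 35.6 and 29.3 CPM at 12 h and 14.8, 12.4, 16.1 and 13.5 CPM at 72 h, LDHA, lactate dehydrogenase, fell from 1243 ± 55.6 to 732 ± 9.14 CPM, and ENO2, an enolase, rose from 5.08 ± 0.409 to 9.97 ± 1.15 CPM. Of 21 targets of hypoxia-inducible factors, 10 were lower and 6 higher, near the shares over protein-coding genes (42.8% and 33.3%). SLC2A12, a glucose transporter, had 5.01, 3.9, 4.87 and 4.67 CPM at 12 h and 29, 32.6, 31.5 and 32.3 CPM at 72 h, with 38.9% of its exon bases opposite another gene, and ADM, adrenomedullin, fell from 14.7 ± 2.06 to 9.74 ± 1.17 CPM. The median of the hypoxia list, -0.0508, was positive with library size only (0.142) and with upper quartiles (0.0853).

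Of 34 targets of ATF4 and genes of amino acid supply, 13 fell and 12 rose, near the shares over all genes tested (37.3% lower and 38.4% higher). DDIT3, the factor CHOP, had 3.62, 4.77, 3.73 and 4.22 CPM at 12 h and 19.4, 15.2, 17.5 and 16.6 CPM at 72 h, but 31.6% of its exon bases lie opposite another gene, and CTH, which makes cysteine, had 16.7, 15, 15.1 and 15.5 and 48.6, 48.5, 48.4 and 48.3 CPM. ATF4 itself fell from 1342 ± 37.5 to 712 ± 42.6 CPM, and SLC38A1, a glutamine transporter, from 493 ± 25.1 to 249 ± 11.5 CPM. The median, -0.0239, was positive with library size only (0.169) and with upper quartiles (0.112). Of 25 measured antioxidant and metal-buffering genes, 16 rose and 7 fell, with a median of 0.425. MT1E, a metallothionein, had 15.3, 13.7, 12.8 and 13.5 CPM at 12 h and 56.8, 50.6, 59.1 and 62.4 CPM at 72 h, and it shares sequence with the other metallothioneins. ABCC2 and ABCC3, exporters of conjugated compounds, moved apart, from 1.16 ± 0.373 to 3.61 ± 0.533 CPM and from 61.4 ± 6.77 to 29.6 ± 3.02 CPM. Of 36 lysosomal genes, 16 rose and 6 fell, beside 33.3% and 42.8% over protein-coding genes. SMPD1, acid sphingomyelinase, had 4.02 ± 0.606 CPM at 12 h and 11.6 ± 0.71 CPM at 72 h. CTSC, a cathepsin, had 317 ± 7.98 and 103 ± 2.33 CPM.

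Most circadian clock genes were higher at 72 h. Of 19 measured, 14 rose and 3 fell, with a median log2 fold change of 0.651. PER1, a repressor of the loop, had 1.86, 1.79, 1.86 and 2.15 CPM at 12 h and 10.8, 7.58, 9.43 and 8.8 CPM at 72 h, a rise of 4.78-fold (adjusted p = 4.74e-13 in edgeR's quasi-likelihood test). PER2, of the same family, had 1.57, 1.74, 2.02 and 1.93 CPM at 12 h and 4.94, 4.6, 5.24 and 4.43 CPM at 72 h. DBP, an output factor of the clock, had 1.67, 2.82, 2.12 and 2.06 CPM at 12 h and 7.51, 6.22, 8.85 and 8.86 CPM at 72 h. These repressors and outputs were higher in every library at 72 h. ARNTL (BMAL1), NPAS2 and CLOCK, which form the activating complexes, fell, from 19.9 ± 0.604 to 13.9 ± 0.791 CPM, from 219.8 ± 4.37 to 146 ± 6.28 CPM and from 116 ± 5.59 to 106 ± 4.27 CPM. For CLOCK the log2 fold change of -0.13 turned to 0.06 with library size only and to 0.0056 with upper quartiles, and the call was lost without replicate 4 at 72 h (adjusted p = 0.0828 in edgeR's quasi-likelihood test). All libraries were harvested together, 12 or 72 h after EGF was added. The phase of the clock at harvest cannot be told apart from the length of the treatment, and it was not tested.

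The activators of the clock bind the E-box CACGTG, which was found in 5 of 18 promoters of these genes (27.8%), beside 7.43% of all promoters. The promoters of PER1 (chr17:8152355-8152654, minus strand), with 1 match at -173, and of CIART (chr1:150282304-150282603, plus strand), a repressor of the clock that rose from 3.49 ± 0.48 to 7.19 ± 0.87 CPM and has 3 matches, the first at -129, are shown with the E-boxes in capitals.
PER1: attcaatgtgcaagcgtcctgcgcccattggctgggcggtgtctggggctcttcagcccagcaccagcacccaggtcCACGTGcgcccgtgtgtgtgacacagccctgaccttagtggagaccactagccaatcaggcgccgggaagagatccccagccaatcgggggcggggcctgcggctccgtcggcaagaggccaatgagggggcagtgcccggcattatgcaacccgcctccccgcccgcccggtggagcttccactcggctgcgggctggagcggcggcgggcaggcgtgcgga
CIART: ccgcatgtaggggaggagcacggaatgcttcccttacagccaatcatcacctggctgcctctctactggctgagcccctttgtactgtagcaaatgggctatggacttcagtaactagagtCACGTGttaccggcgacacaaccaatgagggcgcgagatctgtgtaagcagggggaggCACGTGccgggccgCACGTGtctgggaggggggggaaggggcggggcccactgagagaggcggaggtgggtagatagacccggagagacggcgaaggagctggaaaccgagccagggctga

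Luminal and mammary secretory genes rose in 10 of 18 measured cases and fell in 6 (29 in the list). Over protein-coding genes, 33.3% rose and 42.8% fell. MUC4, a membrane mucin, had 0.143, 0.103, 0.0518 and 0.0897 CPM at 12 h and 6.26, 6.39, 7.42 and 5.77 CPM at 72 h, and AGR2, which folds mucins in the endoplasmic reticulum, had 26.5, 29, 27.8 and 28.9 and 185, 196, 173 and 192 CPM. Both were higher in every library at 72 h. CLU, clusterin, had 128, 125, 117 and 122 CPM at 12 h and 35.8, 31, 34.4 and 35 CPM at 72 h, and CD24, a surface protein of luminal cells, fell from 2592 ± 102 to 1306 ± 18.8 CPM. Of 24 measured lineage transcription factors, 15 fell and 6 rose, with a median log2 fold change of -0.487. ETS1, a factor downstream of the MAP kinases, had 310.2, 293, 318 and 311 CPM at 12 h and 83.4, 80.6, 71.9 and 75.8 CPM at 72 h, TP63, the master factor of basal epithelium, had 0.191, 0.41, 0.466 and 0.224 and 1.43, 1.84, 2.22 and 1.7 CPM, and ETV1, another ETS factor, rose from 4.43 ± 0.58 to 24.3 ± 1.95 CPM.

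Of 13 measured Notch receptors, ligands and targets, 7 fell and 3 rose, beside 42.8% lower and 33.3% higher over protein-coding genes. NOTCH1 had 49.5, 51.1, 44.1 and 51.4 CPM at 12 h and 20.9, 16.4, 23.5 and 20.7 CPM at 72 h, its ligand JAG1 fell from 92.4 ± 2.48 to 51.6 ± 4.96 CPM, and HEY1, a target, rose from 0.681 ± 0.279 to 2.52 ± 0.453 CPM. Of 30 genes of TGF-beta and BMP signaling, 17 fell and 5 rose, beside 42.8% and 33.3% over protein-coding genes. TGFB1, the ligand best known for inducing EMT, had 40.8, 39.3, 33.7 and 34 CPM at 12 h and 12.5, 10.7, 12.5 and 12.5 CPM at 72 h, whereas TGFB3 rose from 0.624 ± 0.185 to 1.77 ± 0.422 CPM. Among 24 regulators of apoptosis, 11 fell and 5 rose, beside 42.8% and 33.3% over protein-coding genes. BMF, a pro-apoptotic BH3-only protein, had 0.429, 0.308, 0.414 and 0.224 CPM at 12 h and 2.01, 2.98, 2.86 and 2.12 CPM at 72 h, and BIK, of the same class, had 28.4, 24.7, 23.8 and 26.2 and 7.62, 5.68, 5.14 and 5.89 CPM, so that these transcripts went opposite ways. The median of the apoptosis list, -0.183, was positive with library size only (0.0119).

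Long non-coding RNAs as a class were higher at 72 h. Of 1770 lncRNAs tested, 1273 rose (71.9%) and 94 fell (5.31%), with a median log2 fold change of 1.05. Of 12876 protein-coding genes, 4288 rose (33.3%) and 5509 fell (42.8%), with a median of -0.073. This direction depended on the scaling: with library size only 44.4% rose and 30.1% fell (median 0.12), and with upper quartiles 41% rose and 34.1% fell (median 0.0625), whereas the share of lncRNAs that rose was 78.2% and 75.8%. The share of all counts from lncRNAs was 0.852 to 0.902% at 12 h and 1.45 to 1.48% at 72 h, and each library at 72 h detected more of them (5420 to 6070) than any at 12 h (4327 to 4496), although 3 of the 4 libraries at 72 h had fewer counts in all. Among genes that had 10 or more counts in each library, 682 of 957 lncRNAs rose (71.3%) and 66 fell (6.9%), which leaves out those that passed only through their level at 72 h. With factors per gene, 406 of 644 rose (63%) and 54 fell (8.39%).

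The direction of change also followed the level of a gene. Protein-coding genes with a mean of 50 CPM and over fell in 64.3% of cases and rose in 19.6% under the TMM scaling, whereas those from 1 to 2 CPM rose in 50.1% and fell in 13.7%, as the plot of gene classes by level shows. At each level, a larger share of lncRNAs than of protein-coding genes rose, for example 72.2% against 31% between 10 and 50 CPM. Among genes under 1 CPM the filter on low counts kept those that reached a sufficient level in 1 of the groups, so that the shares there were not independent of it. The share of mitochondrial counts and the number of genes detected were both higher at 72 h, and their part in these shares was not tested.

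**Figure D5:**
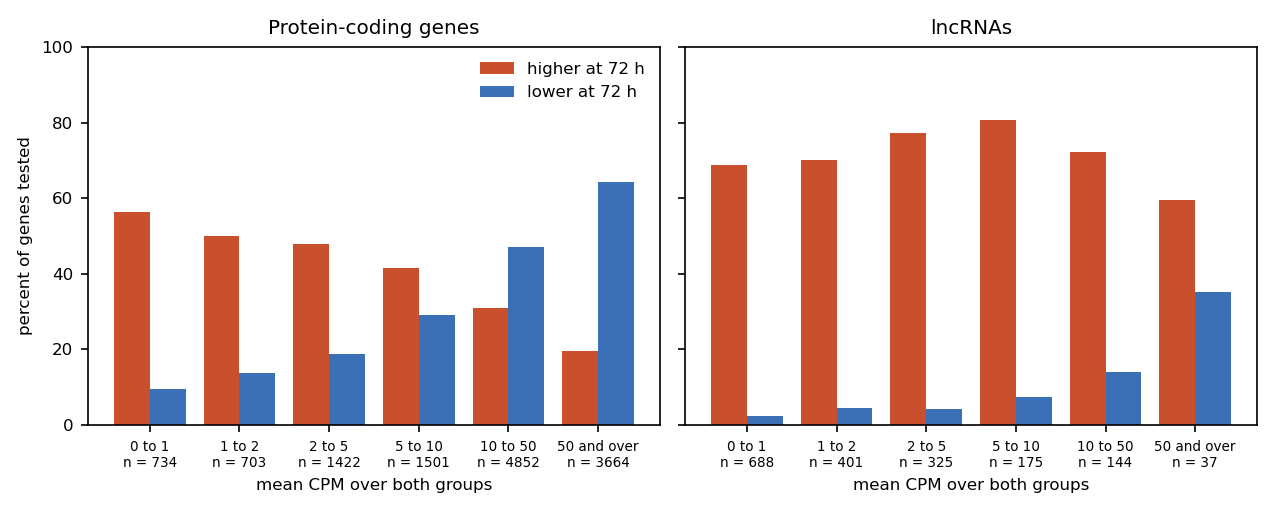
Percent of protein-coding genes and of lncRNAs that were higher (orange) or lower (blue) at 72 h than at 12 h of EGF, in bins of mean CPM over both groups, with the number of genes tested (n) in each bin. Between 10 and 50 CPM, 31% of protein-coding genes and 72.2% of lncRNAs were higher, and at 50 CPM and over 64.3% of protein-coding genes were lower.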

How the data were processed

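RNA was extracted with the RNeasy kit, and libraries were made with the Lexogen Corall mRNA protocol and sequenced as single-end reads by Illumina NS500. Per the labels and the study's methods, the authors deposited estimated counts per gene, rounded to whole numbers and not normalized, together with normalized values from DESeq2 in SARTools. The latter, deposited as a score that resembles a count, served only to recover factors per gene, for 1 alternative. The submitters' processing notes name hg38, and the aligner, counter, annotation, use of strand and use of molecular identifiers are not given in the sources used here. The authors' fold changes and p-values per comparison were not used.

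The 8 libraries at 12 and 72 h of EGF were fitted in edgeR 4.0.16 (R 4.3.3) with a mean per time, filterByExpr defaults, TMM scaling and the robust quasi-likelihood test, with Benjamini-Hochberg adjustment and a threshold of 0.05. Fold changes used a prior count of 0.125. DESeq2 1.42.0 served as an alternative, besides other scalings, filters, samples and a replicate block. On simulated counts for this comparison (14866 genes tested), 81 of 94 genes changed by a log2 fold of 1 and 97 of 99 changed by 2 were recovered, and 6 unchanged genes were called. The simulation changed only 100 genes at each size, equally up and down, whereas 75.7% of genes changed in the data. It therefore cannot show how the fit or the TMM scaling behaves with so many changes. The p-values measure the spread between the libraries of a group. Replicate libraries differed by more than sampling noise (chi-square over degrees of freedom 3.53 to 19.7). At 15611961 counts in the smallest library, genes under 1 CPM rest on few counts, and intervals and floors cover counting error only.

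The comparison, the 38 gene lists and the motifs were chosen with earlier results of these data known. Named were the 12 largest rises and 12 largest falls with a mean of at least 5 CPM, no overlap and a symbol that is not a clone name, in each list the 2 largest rises and falls past the threshold with no overlap, 16 genes often followed in EMT or in the study (among them EGFR, MYC, SNAI1, SNAI2, TWIST1, ZEB1, CDH1, CDH2, VIM, FN1, EZR, MKI67, SCD, FADS1 and FADS2), and members of lists of up to 20 genes, some of which are not reported here. Positions came from GENCODE 29, in which 15063 of the 15228 genes tested were found, all on the chromosome that the table gives, and promoters came from RefSeq (GRCh38.p14), matched by symbol.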

Additional observations from a re-analysis of the deposited data

Results flagged for a closer look

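In 9 of 314 groups of 4 libraries, 1 library stood apart from the other 3, with a gap over the range above Dixon's 95% critical value. Chance alone flags about 1 in 20 groups.

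At 12 h, EZR had 248.3 CPM in replicate 3, below 259.5 to 261.3 in the others. ERRFI1 had 1184 CPM in replicate 4, above 1131 to 1140. In replicate 1 at 12 h, TNS4 had 293.5 CPM (274.5 to 276.6 in the others), HMGA2 34.38 CPM (32.58 to 32.88) and PLA2G4E 1.049 CPM (1.57 to 1.658). At 72 h, TGFB1 had 10.72 CPM in replicate 2, below 12.5 to 12.52. In replicate 1 at 72 h, SPRR2D had 38.44 CPM (33.11 to 33.94 in the others) and TAP1 37.24 CPM (34.17 to 34.48). COX6A1P2 had 5.615 CPM in replicate 3 at 72 h, above 0 to 0.8055 in the others.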

How the results depend on the processing

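Over 20 alternatives, the number of genes changed stayed within 1.5 times the 11530 reported in all but 1: glmTreat, which tests against a 1.5-fold change, called 4648, with 64.7% of them higher. The number of genes higher at 72 h, 5843, came to 3261 with factors per gene, where 12339 genes were tested and 4000 of the reported rises lay. The split of higher against lower was 7436 to 3981 with library size only and 6931 to 4519 with upper quartiles. Leaving out each library in turn gave 11273 to 11526 genes changed, 5696 to 5849 higher, 5453 to 5707 lower and 6355 to 6620 beyond the 1.5-fold limit. No filter beyond 1 count gave 13297 of 29923 genes and the fit of all 20 libraries 11169 of 16522. Of the reported calls, 407 changed sign, passing the threshold or not, with library size only, 191 with factors per gene and 87 with upper quartiles, among the named genes CLOCK, with log2 fold changes of 0.0638 and 0.00559 with library size only and upper quartiles. Counts of list members stayed within 1.5 times in 1316 cases and did not in 52, of which 16 were with library size only, 13 with factors per gene and 10 with upper quartiles.

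The rise in the mitochondrial share was 5.06 to 6.56 percentage points when each library was left out, with exact permutation p from 0.0286 to 0.0571. It missed 0.05 (exact permutation p = 0.0571) when any 1 of the 4 libraries at 12 h was left out, where fewer regroupings are possible. All 4 libraries at 72 h still lay above all remaining libraries at 12 h. The cause of the rise was not tested. The replicate numbers did not pair the libraries: deviations of same-numbered libraries from their group means had correlations of -0.0271 to 0.0206, and 0 of 4 libraries at 12 h correlated best with their own number. The fit with a replicate block called 11406 genes, 5771 higher and 5635 lower, and 6352 beyond the 1.5-fold limit, and it called 1 mitochondrially encoded mRNA where 6 were reported. Depth limits the genes under 1 CPM.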

Other observations

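Pseudogenes stood between protein-coding genes and lncRNAs, with 227 of 478 tested higher at 72 h (47.5%) and 75 lower (15.7%), and their reads may come from their parent genes. Among protein-coding genes the median log2 fold change differed between chromosomes, from -0.187 over 309 genes of chromosome 22, where 28.5% rose and 49.2% fell, to 0.0629 over 463 genes of chromosome 4, where 41.9% rose and 35.4% fell. With these genes in 4 equal classes of total exon length, it moved from -0.0271 in the shortest class (192 to 3275 bases) to -0.0966 in the longest (7522 to 44677 bases). Genes share neighbourhoods and levels within a chromosome, and these values are a description without a test.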
